A study of Homo sapiens with 5 samples.

Results

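The mRNAs of the mitochondrial ribosomal proteins were followed through RNA immunoprecipitation of PSF, an RNA-binding protein and the product of the SFPQ gene, in LTAD prostate cancer cells. Members were taken by name: a gene symbol of MRPL or MRPS followed by digits and at most 1 further letter. The rule found 78 of the 25702 genes in the count table, 49 with MRPL and 29 with MRPS symbols. The rule itself used no measured value, but it was chosen with earlier results of these data known. All 78 members passed the minimum of 1 CPM (counts scaled to a common library size) averaged over the libraries of a comparison, in both comparisons made.

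The mitochondrial ribosome translates the few mRNAs of the mitochondrial genome, all of which encode subunits of the respiratory chain and of ATP synthase. Its proteins are encoded in the nucleus, made on cytosolic ribosomes and imported. MRPL genes encode proteins of the large subunit, which holds the peptidyl transferase centre and the exit tunnel, and MRPS genes mostly encode proteins of the small subunit, which holds the decoding site. Some of these proteins have bacterial homologues and others are found only in mitochondrial ribosomes. PSF is a mainly nuclear protein of the DBHS family that acts in transcription, splicing and RNA retention in the nucleus.

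RNA immunoprecipitation with sequencing (RIP-seq) recovers the RNA that comes down with a protein and sets it against the RNA of the lysate, the input. The 5 libraries were 2 of PSF-RIP after No.10-3, a small molecule given at 5 µM, 1 of PSF-RIP after the DMSO vehicle, 1 input after No.10-3 and 1 input after vehicle. All cells were of the LTAD line, grown in phenol-red-free medium with charcoal-treated serum. The table names its input columns without the treatment, so the inputs are called here the first and the second and were treated as 1 group. The columns of the No.10-3 libraries name no antibody and were read as PSF-RIP because they are not named as input. No immunoprecipitation with a control antibody was analysed here. The labels do not say whether libraries came from separate cultures, so p-values measure a spread between libraries that may be technical. In PSF-RIP over input, that spread also holds any difference between No.10-3 and vehicle, since each side mixes both treatments. The luminal prostate markers KLK3, FOXA1 and HOXB13 had counts in every library, and the leukocyte markers CD3E, CD14 and PTPRC had 0 counts in all 5. Of 8 basal and stromal markers, KRT5, TP63 and DCN were at 0 in all 5, while COL1A1 and VIM had counts in every library. The 8 summed to 130 and 326 counts with No.10-3 and 263 with vehicle in PSF-RIP, against 43 and 30 in the inputs. The 10 luminal markers summed to 5271, 13350 and 7307, against 2811 and 2232. These sums are raw counts, and more of the counts in PSF-RIP than in input fell in protein-coding genes. The part of the basal and stromal markers in the results was not tested.

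The libraries held 1519362 and 3368252 counts in No.10-3 PSF-RIP, 2181770 in vehicle PSF-RIP, and 4010376 and 3083063 in the first and second input. In the PSF-RIP libraries, 73.6%, 82.1% and 76.1% of counts fell in nuclear protein-coding genes, against 16.4% and 15.9% in the inputs, where RN7SK, RN7SL1, RN7SL2, RPPH1 and RMRP alone took 51.7% and 55.01%. The members therefore took 0.3%, 0.3003% and 0.266% of all counts in PSF-RIP, against 0.0658% and 0.0799% in input. As a share of protein-coding counts they took 0.407% and 0.366% with No.10-3 and 0.350% with vehicle in PSF-RIP, against 0.400% and 0.502% in the inputs. The 95% Wilson intervals of these last shares ran from 0.396% to 0.419%, 0.358% to 0.373% and 0.341% to 0.359% in PSF-RIP, and from 0.385% to 0.416% and 0.482% to 0.522% in input, and cover counting error only. The median member had 42.5, 100 and 47.5 counts in the PSF-RIP libraries but only 25.5 and 22 in the inputs, where 31 and 32 members had fewer than 20 counts. All levels below are CPM after TMM scaling, which matches the bulk of genes between libraries; they are relative levels in bulk RNA, where fewer cells holding an mRNA and less of it in each cell cannot be told apart.

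The first comparison set the 3 PSF-RIP libraries against the 2 inputs, which asks how far each mRNA was recovered with PSF. It was run across 13321 genes with edgeR's quasi-likelihood test and Benjamini-Hochberg adjustment over all of them, and a gene was called at an adjusted p under 0.05. The test called 16 members, where 20.4% of all genes tested were called. Only 3 members were higher in PSF-RIP, where 10.0% of all genes were called higher, and 13 were lower, where 10.4% of all genes were called lower. Higher and lower here are relative to the bulk of genes after TMM scaling. The TMM factors were 1.781 and 2.059 with No.10-3 and 1.925 with vehicle in PSF-RIP, against 0.3877 and 0.3653 in the inputs. As a share of all counts, the members together were higher in PSF-RIP, at 0.266% to 0.3003%, against 0.0658% and 0.0799% in input. The median member had a log2 PSF-RIP over input of -0.52, with quartiles at -0.96 and 0.25, against a median of 0.08 over all genes and 0.14 over nuclear protein-coding genes. The values of 24 members were above 0 and those of 54 below it. All 3 PSF-RIP libraries stood above both inputs for 14 members, where 30.1% of all genes did so. They stood below both inputs for 31 members, where 25.1% of all genes did so. The share of members called is thus near that of all genes, while more were called lower than higher. That split depended on the setting: it was 3 higher and 13 lower here, 6 and 11 when libraries were scaled to nuclear protein-coding counts, and 8 and 9 when the trend on gene length was removed, where it was nearly even.

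Each PSF-RIP library taken on its own against the mean of the inputs gave a median member below 0: -0.20 and -0.36 in the No.10-3 libraries and -0.67 in the vehicle library. The libraries differed among themselves, the inputs included. The median member was 0.44 higher on the log2 scale in the second than in the first input, against -0.02 over all genes, and 9 of 78 members differed by at least 2-fold between them, as did 2154 of the 13321 genes. Without the first input 8 members were called (8.55% of all genes tested in that setting), 0 higher and 8 lower, with a median of -0.58. Without the second input 6 were called (4.46% of all genes), 0 higher and 6 lower, with a median of -0.10. Without No.10-3 replicate 2, the call count was 25 (36.4% of all genes), with 6 higher and 19 lower. Without the vehicle library it was 11 (10.7% of all genes), with 4 higher and 7 lower, and without No.10-3 replicate 1 it was 11 (12.7% of all genes), with 2 higher and 9 lower.

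**Figure D1:**
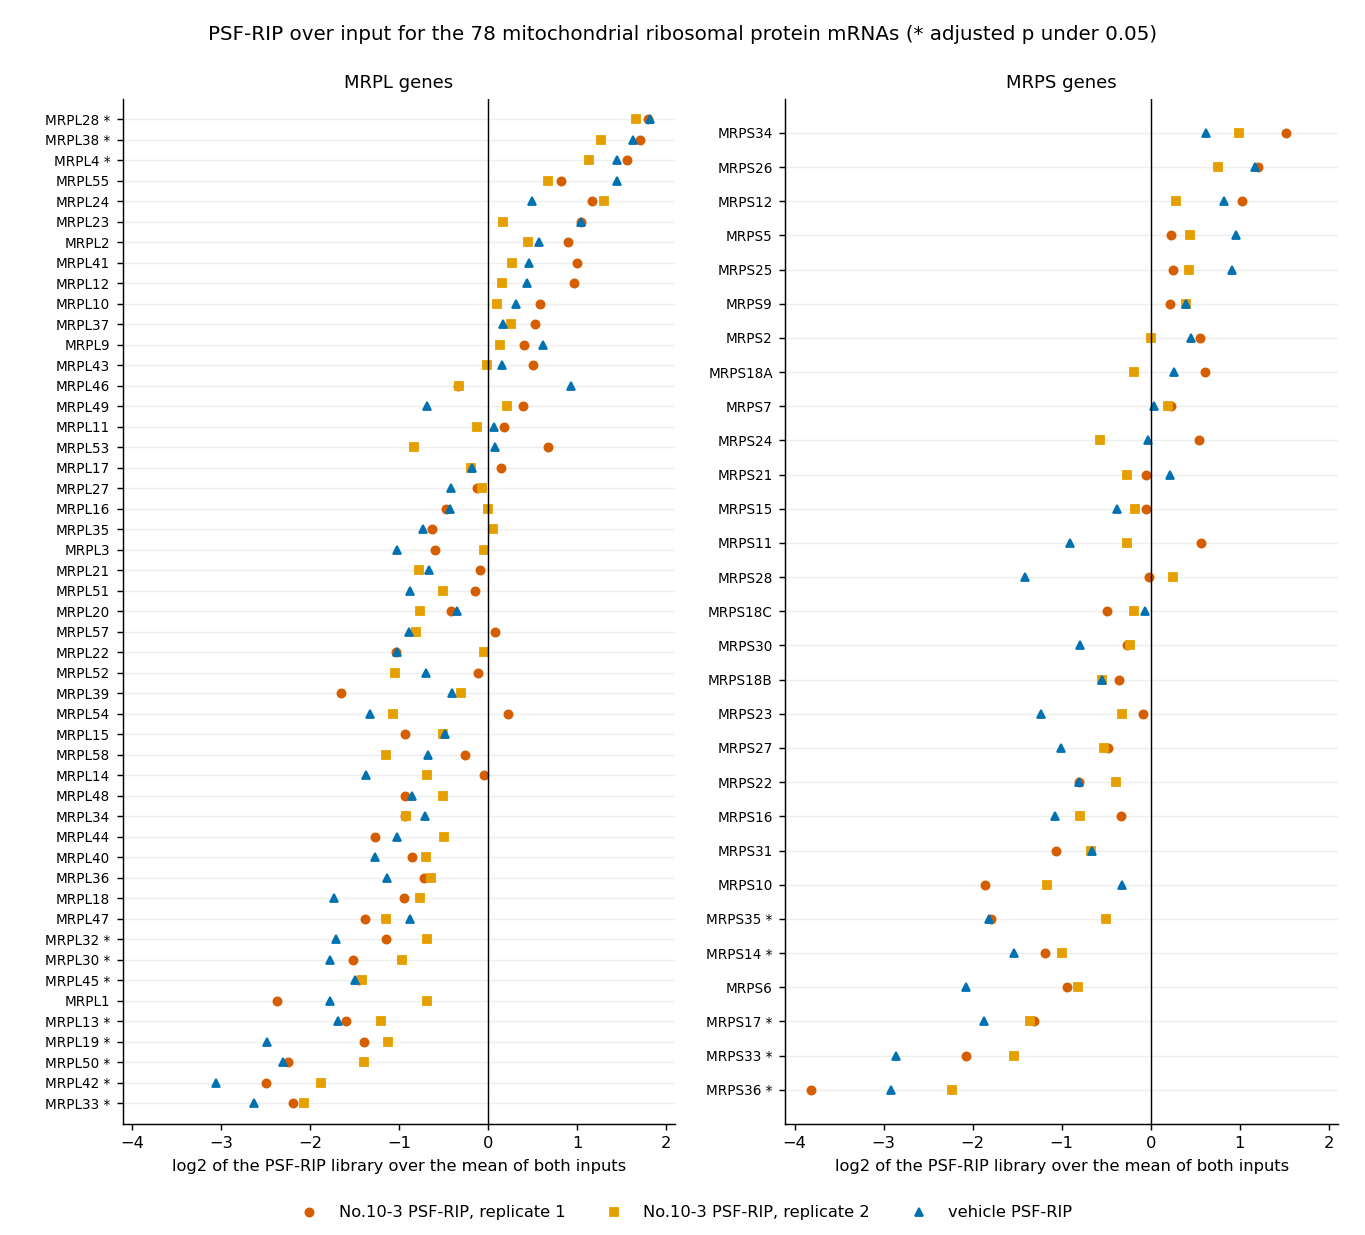
Log2 of each PSF-RIP library over the mean of both inputs (horizontal axis) for each of the 78 members (rows, ordered by the fitted value), with MRPL genes on the left and MRPS genes on the right. Circles and squares are No.10-3 replicates 1 and 2, triangles are vehicle, and an asterisk marks the 16 members called; MRPL28, MRPL38 and MRPL4 lead the upper end and MRPS36, MRPL33 and MRPL42 the lower end.

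**Figure D2:**
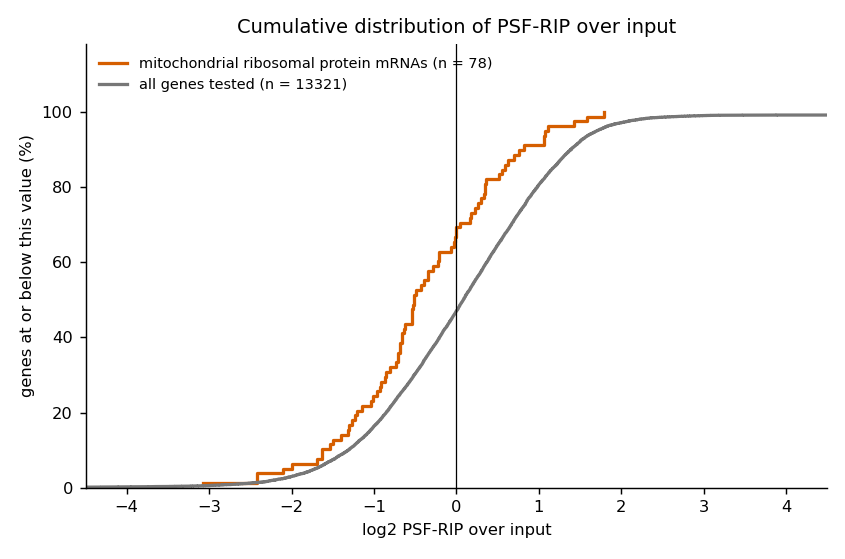
Share of genes (vertical axis, percent) at or below each log2 PSF-RIP over input (horizontal axis) for the 78 members and for all 13321 genes tested. The curve of the members lies to the left of the other over most of the range, with medians of -0.52 and 0.08.

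The 3 members called higher all encode large-subunit proteins. MRPL28 (Entrez 10573), which has a bacterial homologue in the large subunit, stood at 21.1 and 19.0 normalised CPM with No.10-3 and 21.4 with vehicle in PSF-RIP, against 7.08 and 4.44 in the inputs. MRPL38 (Entrez 64978), a mitochondria-specific protein of the central protuberance, stood at 47.3, 34.5 and 44.5 in the same order of PSF-RIP libraries, against 11.6 and 16.9 in the inputs. MRPL4 (Entrez 51073), whose bacterial homologue lines the exit tunnel, stood at 39.2, 28.8 and 36.2, against 10.3 and 15.98. For each of these genes every PSF-RIP library was above both inputs, and the vehicle library lay within or next to the No.10-3 libraries. The log2 PSF-RIP over input was 1.79 for MRPL28 (SE 0.48, adjusted p = 0.0117), 1.58 for MRPL38 (SE 0.41, adjusted p = 0.00975) and 1.42 for MRPL4 (SE 0.42, adjusted p = 0.0197). The inputs held few reads of these genes: 11 and 5 counts for MRPL28, 18 and 19 for MRPL38, and 16 and 18 for MRPL4. None of the 3 calls was kept when either input was left out, where the adjusted p reached 0.178 for MRPL28, 0.160 for MRPL38 and 0.245 for MRPL4; MRPL4 was also lost without No.10-3 replicate 1.

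Among the 13 members called lower, MRPS36 (Entrez 92259) was the lowest of all members. Despite its name, it is now known as a component of the alpha-ketoglutarate dehydrogenase complex, and RefSeq lists it as KGD4. It had 0.739 and 3.46 normalised CPM with No.10-3 and 1.90 with vehicle in PSF-RIP, against 23.8 and 14.2 in the inputs, from 2, 24 and 8 counts against 37 and 16. The groups were far apart, but the No.10-3 libraries also differed from each other by more than 4 times, on few counts. Its log2 PSF-RIP over input was -3.07 (SE 0.51, adjusted p = 0.000286).

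The next members down were MRPL42 and MRPL33. MRPL42 (Entrez 28977), a mitochondria-specific large-subunit protein, stood at 19.2 and 29.7 normalised CPM with No.10-3 and 12.9 with vehicle in PSF-RIP, against 98.4 and 125 in the inputs. MRPL33 (Entrez 9553), a short large-subunit protein with a bacterial homologue, stood at 19.95, 21.8 and 14.5 in PSF-RIP, against 61.7 and 140 in the inputs. In both, the highest PSF-RIP library was well under the lower input, although the inputs for MRPL33 differed by more than 2-fold. Each had a log2 PSF-RIP over input of -2.42 (SE 0.38), with an adjusted p of 0.000112 for MRPL42 and 0.000136 for MRPL33.

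MRPS33 and MRPL50 followed. MRPS33 (Entrez 51650), a mitochondria-specific small-subunit protein, stood at 10.7 and 15.7 normalised CPM with No.10-3 and 5.95 with vehicle in PSF-RIP, against 47.0 and 47.1 in the inputs. MRPL50 (Entrez 54534), a mitochondria-specific large-subunit protein, stood at 3.70, 7.21 and 3.57, against 21.2 and 18.6. The inputs of these genes were close together and no PSF-RIP library came near them. The log2 PSF-RIP over input was -2.1 for MRPS33 (SE 0.40, adjusted p = 0.00111) and -1.99 for MRPL50 (SE 0.45, adjusted p = 0.00425). MRPS36, MRPL42, MRPL33, MRPS33 and MRPL50 were the members called in all 15 alternative settings, leave-outs of each library included.

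The other 8 members called lower ranged from -1.69 to -1.23. MRPL19 (Entrez 9801), a large-subunit protein with a bacterial homologue, had 11.8 and 14.4 normalised CPM with No.10-3 and 5.24 with vehicle in PSF-RIP, against 44.4 and 23.1 in the inputs (log2 -1.69, SE 0.43, adjusted p = 0.00963). MRPL45 (Entrez 84311), which sits at the tunnel exit and ties the ribosome to the inner membrane, had 11.8, 12.1 and 11.4, against 36.7 and 30.2 (log2 -1.50, SE 0.38, adjusted p = 0.00821), and was the most even of the called members across PSF-RIP. MRPL30 (Entrez 51263), with a bacterial homologue in the large subunit, had 11.4, 17.0 and 9.52, against 34.1 and 33.7 (log2 -1.40, SE 0.39, adjusted p = 0.0148). In these genes, too, all PSF-RIP libraries were under both inputs. MRPL13 (Entrez 28998) and MRPS17 (Entrez 51373) each had a log2 value of -1.63, on 7 to 25 and 15 to 37 counts in PSF-RIP, against 11 and 13 and 17 and 22 counts in the inputs. MRPS14 (Entrez 63931) was at -1.30, MRPL32 (Entrez 64983) at -1.27 and MRPS35 (Entrez 60488) at -1.23, with adjusted p-values of 0.0321, 0.0408 and 0.0408. MRPL32 is known as a protein that must be trimmed by a mitochondrial protease before it joins the large subunit. Its highest PSF-RIP library, 17.0 normalised CPM, lay just under its lower input, 17.4, and its inputs were 1.32 apart on the log2 scale. Each of these 8 calls was lost when some library was left out: MRPL19 without the first input, MRPS17 and MRPL32 without the second, and MRPL45, MRPL30, MRPL13, MRPS14 and MRPS35 without either. All but MRPL19 and MRPL45 were also lost without the vehicle library, and MRPL13, MRPL32, MRPS14 and MRPS35 without No.10-3 replicate 1. With the trend on gene length removed, MRPL13, MRPL32, MRPS14 and MRPS17 were no longer called. The highest adjusted p over all alternatives was 0.222 for MRPL19, 0.113 for MRPL45, 0.105 for MRPL30 and 0.686 for MRPL32, whose log2 value then came to -0.46.

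**Figure D3:**
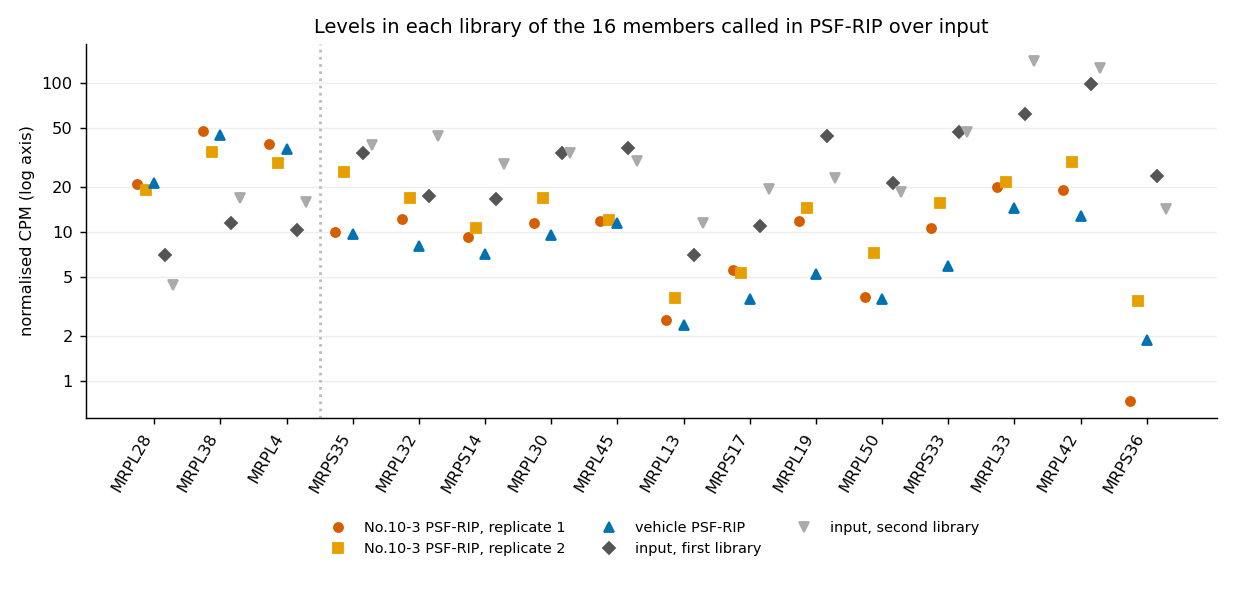
Normalised CPM (log axis) of the 16 called members in each library, with the 3 higher in PSF-RIP left of the dotted line and the 13 lower right of it. Within each gene the PSF-RIP libraries (No.10-3 replicates as circle and square, vehicle as triangle) stand left of the inputs (diamond and inverted triangle). MRPL28 runs from 4.44 to 21.4 CPM and MRPL42 from 12.9 to 125 CPM. No called member has overlapping groups, but the calls rest on these same libraries, so this is no separate support.

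Some members lay close to the threshold without passing it. Above 0 these were MRPS34 (log2 1.11, adjusted p = 0.0520), MRPS26 (1.06, adjusted p = 0.0508), MRPL24 (1.06, adjusted p = 0.0692) and MRPL55 (1.07, adjusted p = 0.106). Below 0 they were MRPL18 (-1.15, adjusted p = 0.0534), MRPS6 (-1.31, adjusted p = 0.0703), MRPL47 (-1.21, adjusted p = 0.0783), MRPL34 (-0.87, adjusted p = 0.0840), MRPL1 (-1.54, adjusted p = 0.0903) and MRPL40 (-0.96, adjusted p = 0.0911). MRPS34, a mitochondria-specific small-subunit protein altered in some mitochondrial diseases, had 55.4 and 38.2 normalised CPM with No.10-3 and 29.3 with vehicle in PSF-RIP, against 16.7 and 21.3 in the inputs, with no overlap. MRPL55 had 15.2, 13.6 and 23.8, against 7.08 and 9.77, also with no overlap. MRPS34 overlaps EME2 and MRPL24 overlaps HDGF, and the strand setting of the authors' counting is not given, so part of their reads could belong to the neighbour. In all, 20 members overlap another gene of the count table by the RefSeq annotation, but none of the 16 called members does. The called members MRPL4, MRPL19, MRPL28 and MRPL42 do overlap annotated genes that the count table lacks. For MRPL42 the overlapping gene is the pseudogene RN7SL737P. Whether reads of such genes were counted for the members was not tested.

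By role, lower calls were found in both subunits, where 10.0% of all genes tested were called higher and 10.4% lower. Of 30 large-subunit proteins with bacterial homologues, 2 were called higher and 5 lower, with a median log2 PSF-RIP over input of -0.53. Of 21 mitochondria-specific large-subunit proteins, which here include MRPS18A and MRPS30 by their place in the ribosome, 1 was called higher and 3 lower, with a median of -0.54. In the small subunit, 0 of 16 proteins with bacterial homologues were called higher and 2 lower, with a median of -0.21, and 0 of 10 mitochondria-specific proteins were called higher and 2 lower, with a median of -0.59. The classes were not tested against each other.

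Most members known for a functional site or for a role in disease did not pass the test, and nor did most genes, of which 20.4% were called. MRPL12 and MRPL11 belong to the stalk that recruits translation factors. MRPL12, which also binds the mitochondrial RNA polymerase, stood at 50.2 and 28.3 normalised CPM with No.10-3 and 34.5 with vehicle in PSF-RIP, against 21.2 and 30.2 in the inputs (log2 0.55, SE 0.39, adjusted p = 0.318). MRPL11 had a log2 value of -0.01 (SE 0.47). MRPS12, which lies at the decoding site, stood at 20.7, 12.1 and 17.9, against 8.36 and 11.5 (log2 0.76, SE 0.46, adjusted p = 0.236), so its PSF-RIP libraries were all above the inputs without passing the test. MRPL41 was at 0.62 (SE 0.39), MRPL3 at -0.52 (SE 0.41), MRPL44, which has a ribonuclease III fold, at -0.93 (SE 0.45), MRPS16 at -0.71 (SE 0.36) and MRPS22 at -0.68 (SE 0.41), and none of these passed. The paralogues of the MRPS18 family occupy different places: MRPS18A, of the large subunit, was at 0.26, and MRPS18B and MRPS18C, of the small subunit, were at -0.49 and -0.35, with adjusted p-values of 0.698, 0.335 and 0.682.

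Levels of different members were compared per kilobase of the gene length in the table. In input, MRPL33 had the highest level, a mean of 195 normalised CPM per kilobase (119 and 271 in the first and second input), followed by MRPL51 at 110, MRPL20 at 67.1, MRPS15 at 60.6 and MRPS33 at 57.5. The lowest levels in input were those of MRPL22 at 2.34, MRPL35 at 3.22, MRPL2 at 3.48, MRPS31 at 3.52 and MRPL19 at 4.31. The order in PSF-RIP was not the same. MRPL51 led with a mean of 75.3, MRPL33 was the 10th at 36.2 and MRPS33 the 37th at 13.2, while MRPL20 and MRPS15 stayed among the first 5 at 46.1 and 52.2. MRPL51 itself stood at 94.96 and 74.3 with No.10-3 and 56.6 with vehicle in PSF-RIP, against 78.9 and 140 in the inputs, and the groups overlap.

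Members are short, with a median gene length of 1176.5 bases against 2891 over all genes, and short genes tended to be lower in PSF-RIP. The 8 members under 700 bases had a median log2 PSF-RIP over input of -0.61, against -0.82 for 231 nuclear protein-coding genes of that length. At 700 to 1000 bases the medians were -0.54 over 19 members and -0.31 over 418 genes, and at 1000 to 1500 bases -0.21 over 25 members and -0.01 over 952 genes. From 1500 to 2500 bases they were -0.43 over 17 members and 0.21 over 2770 genes, and at 2500 bases or more -0.62 over 9 members and 0.18 over 7435 genes. The medians of the members were thus under those of the coding genes in every range of length but the shortest. The coding genes include the members, and some ranges hold few members. Among the 78 members the log2 value did not follow length, with a Pearson r of 0.02 and a Spearman rho of 0.04, as a description across genes that share libraries. With the trend on gene length removed in each library, the median member was at -0.21 and all genes at 0.03, and 8 members were called higher (8.75% of all genes) and 9 lower (12.8% of all genes). Under that setting MRPL24, MRPS34, MRPL55, MRPS26 and MRPL41 joined the higher calls, and MRPL13, MRPL32, MRPS14 and MRPS17 left the lower calls. Counting only reads in nuclear protein-coding genes as the library size gave 6 higher and 11 lower calls and a median of -0.42, beside 0.18 for all genes. The share of all genes called in that setting is not given, so the calls show only the split.

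**Figure D4:**
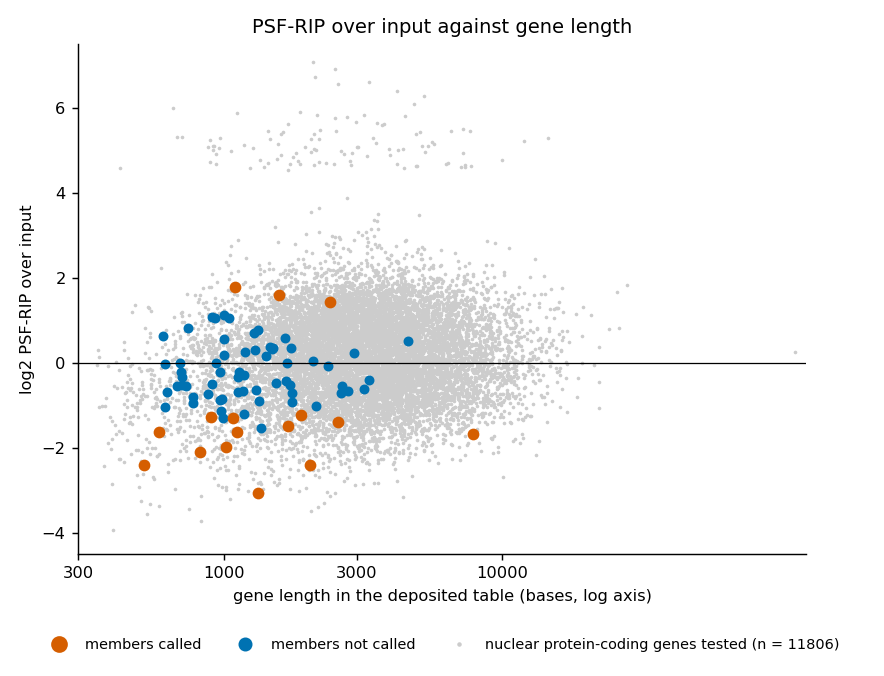
Log2 PSF-RIP over input (vertical axis) against the gene length given in the count table (horizontal log axis, bases) for members called (orange), members not called (blue) and nuclear protein-coding genes (grey). The members run from 518 bases (MRPL33) to 7827 bases (MRPL19), most of them left of the main cloud of genes.

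The same test was read for related gene groups, beside 10.0% of all genes called higher and 10.4% called lower. Among mRNAs of cytosolic ribosomal proteins, 0 of 79 tested were called higher and 53 lower, with a median log2 PSF-RIP over input of -1.71 and a median gene length of 732 bases. Among mRNAs of nuclear-encoded respiratory chain subunits, 5 of 78 tested were called higher and 26 lower, with a median of -0.60. The members lie between all genes and the cytosolic ribosomal proteins and near the respiratory chain mRNAs on this scale. The differences between lists were not tested.

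The other genes of mitochondrial translation were read beside the same shares of all genes, 10.0% called higher and 10.4% called lower. Of 5 subunits of the mitochondrial ribosome with names outside the MRP scheme (DAP3, CHCHD1, AURKAIP1, PTCD3 and GADD45GIP1), 0 were called, with a median of 0.47. Of 25 assembly factors of the mitochondrial ribosome, 3 were called higher and 0 lower, with a median of 0.49. The 3 were the GTPases MTG2 (log2 1.47, adjusted p = 0.0234) and MTG1 (1.25, adjusted p = 0.0423) and the RNA helicase DHX30 (1.34, adjusted p = 0.0195). DHX30 stood at 87.9 and 54.4 normalised CPM with No.10-3 and 103 with vehicle in PSF-RIP, against 30.9 and 33.7 in the inputs. Of 16 translation factors tested, 0 were called higher and 2 lower, with a median of -0.05: the initiation factor MTIF3 (-1.84, adjusted p = 0.00920) and SLIRP, the partner of LRPPRC in keeping mitochondrial mRNAs stable (-1.79, adjusted p = 0.00260). TUFM, the mitochondrial elongation factor Tu, was at 1.03 (adjusted p = 0.0512). Of 20 genes that charge mitochondrial tRNAs, 3 were called higher, VARS2 (1.78), AARS2 (1.73) and HARS2 (1.09), and 1 lower, GATC (-1.54), with a median of 0.16.

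Promoters were read as a feature that the choice of members did not use, since the mRNAs of this family are known to be driven by the factors NRF1, GABP and YY1. RefSeq windows of GRCh38.p14, reaching 250 bases before the start of the gene, were found for 70 of the 78 members. The GABP core CCGGAAG, searched on both strands, was in 23 of 70 member windows (32.9%), against 16.8% of the windows of 9764 tested protein-coding genes and 8.82% of all 27305 windows of that length. The YY1 core AAGATGGC was in 5 (7.14%), against 1.88% and 1.37%. The NRF1 core CGCANGCGC was in 10 (14.3%), against 14% and 7.09%. Of the 12 members called lower that have a window, 2 held the GABP, 3 the NRF1 and 1 the YY1 core, and of the 3 called higher 1, 0 and 0 did, while 20, 7 and 4 of the 55 members not called did. A match is a run of letters and not a measured binding site.

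The called members whose window holds at least 1 of these cores are shown, so starts of members called higher and lower stand side by side. They are not the ends of the PSF-RIP comparison: MRPL28, the highest, and MRPS36, MRPL42 and MRPL50, among the 5 lowest, are not shown. Each window shown is written 5′ to 3′ on the strand of its gene, up to the base before the start. The cores, on either strand, are in capitals. MRPL38 was higher in PSF-RIP and the other 5 were lower.
MRPL38, chr17:75904885-75905134, minus strand: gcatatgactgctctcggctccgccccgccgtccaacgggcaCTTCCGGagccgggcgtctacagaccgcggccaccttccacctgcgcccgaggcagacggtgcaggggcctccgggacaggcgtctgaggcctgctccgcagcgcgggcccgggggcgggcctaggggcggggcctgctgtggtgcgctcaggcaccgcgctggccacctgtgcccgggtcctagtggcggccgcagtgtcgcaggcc
MRPL33, chr2:27771469-27771718, plus strand: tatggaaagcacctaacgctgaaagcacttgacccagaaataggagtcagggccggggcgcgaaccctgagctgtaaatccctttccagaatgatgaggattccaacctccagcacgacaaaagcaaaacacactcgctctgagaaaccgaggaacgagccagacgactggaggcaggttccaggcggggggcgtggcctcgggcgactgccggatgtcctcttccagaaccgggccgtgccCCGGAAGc
MRPS33, chr7:141014953-141015202, minus strand: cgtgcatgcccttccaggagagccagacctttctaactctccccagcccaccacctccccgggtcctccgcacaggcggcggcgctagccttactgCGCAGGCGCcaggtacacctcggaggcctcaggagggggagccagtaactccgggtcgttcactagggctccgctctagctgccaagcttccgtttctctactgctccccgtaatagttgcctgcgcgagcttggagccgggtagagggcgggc
MRPL45, chr17:38296918-38297167, plus strand: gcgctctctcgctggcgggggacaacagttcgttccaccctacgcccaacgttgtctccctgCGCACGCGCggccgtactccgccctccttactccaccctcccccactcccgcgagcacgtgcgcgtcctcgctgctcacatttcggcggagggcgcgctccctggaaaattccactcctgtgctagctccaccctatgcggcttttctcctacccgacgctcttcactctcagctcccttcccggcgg
MRPL30, chr2:99180934-99181183, plus strand: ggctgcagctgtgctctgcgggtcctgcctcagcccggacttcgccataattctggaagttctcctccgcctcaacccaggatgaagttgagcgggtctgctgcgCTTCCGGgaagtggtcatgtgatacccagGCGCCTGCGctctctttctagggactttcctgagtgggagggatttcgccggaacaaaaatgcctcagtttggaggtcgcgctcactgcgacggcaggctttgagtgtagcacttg
MRPL32, chr7:42932126-42932375, plus strand: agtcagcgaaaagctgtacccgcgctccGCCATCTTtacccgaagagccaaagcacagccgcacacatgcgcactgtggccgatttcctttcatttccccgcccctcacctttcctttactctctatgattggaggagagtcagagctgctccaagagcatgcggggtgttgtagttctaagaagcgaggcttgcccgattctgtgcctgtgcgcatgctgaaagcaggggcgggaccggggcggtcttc
MRPL38 and MRPL33, called in opposite directions, each hold a GABP core, MRPS33 and MRPL45 each hold an NRF1 core, MRPL30 holds both, and MRPL32 holds a YY1 core. The GABP core of MRPL33 ends next to the last base of its window.

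The second comparison set the 2 No.10-3 PSF-RIP libraries against the vehicle PSF-RIP library, which asks whether the small molecule changed what came down with PSF. The test was run across 13766 genes and rests on the spread between the No.10-3 libraries alone, since vehicle has 1 library. It called no member and 0 of all genes tested, a share of 0%, by edgeR's quasi-likelihood test with Benjamini-Hochberg adjustment, where the smallest adjusted p of any gene was 0.140. Before adjustment, 563 genes had a p under 0.05, and DESeq2 also called 0 genes. Among members, MRPS28 and MRPL46 were the 2 with an unadjusted p under 0.05, and adjusted p-values ran from 0.9976 to 0.9995.

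The median member was at a log2 No.10-3 over vehicle of 0.23, with quartiles at -0.10 and 0.59, against 0.04 over all genes. No.10-3 replicate 1 gave a median of 0.29 and replicate 2 of 0.13. Both No.10-3 libraries were above vehicle for 36 members and below it for 16, and they went opposite ways for 26, while over all genes these counts were 4558, 4486 and 4721. The inputs cannot be assigned to a treatment, so the level in the lysate cannot be set against these values by treatment. Respiratory chain mRNAs had a median of 0.53 in this comparison and cytosolic ribosomal protein mRNAs -0.24.

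Few members stood 2-fold or more away from vehicle on the same side in each No.10-3 library: 3 were higher, where 2.56% of all genes were, and 1 was lower, where 1.53% of all genes were. MRPS28 (Entrez 28957), a small-subunit protein, had 28 and 87 counts with No.10-3, or 10.3 and 12.5 normalised CPM, and 15 counts with vehicle, or 3.57 normalised CPM. The log2 ratios to vehicle, computed with 2 counts added in proportion to library size, were 1.43 and 1.69. In the inputs MRPS28 had 6.43 and 16.9 normalised CPM, so the No.10-3 libraries lay between the inputs and the vehicle library under both. MRPS6 (Entrez 64968), also of the small subunit, had 5.91 and 6.49 normalised CPM with No.10-3 and 2.38 with vehicle, with log2 ratios of 1.17 and 1.29, and its inputs were at 8.36 and 16.9. MRPS6 overlaps SLC5A3, which had 63 and 334 counts with No.10-3 and 110 with vehicle, against 218 and 117 in the inputs, where MRPS6 had 16, 45 and 10, against 13 and 19, so part of its reads could belong to that gene. MRPL19, called lower in PSF-RIP than in input, had log2 ratios of 1.11 and 1.38, so it was nearer to input with No.10-3 than with vehicle. MRPL46 (Entrez 26589), a mitochondria-specific large-subunit protein, went the other way, with 5.17 and 5.19 normalised CPM with No.10-3 and 13.3 with vehicle, and log2 ratios of -1.30 in both. Its inputs were at 8.36 and 5.33, on 13 and 6 counts. Each of these ratios rests on the same single vehicle library.

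The 5 members called under every setting of the first comparison had fitted log2 No.10-3 over vehicle values of 1.16 for MRPS33 (SE 0.69), 0.93 for MRPL42 (SE 0.62), 0.65 for MRPL50 (SE 0.78), 0.52 for MRPL33 (SE 0.62) and 0.31 for MRPS36 (SE 0.88). The members called higher had values near 0, at -0.10 for MRPL28 (SE 0.59), -0.13 for MRPL38 (SE 0.56) and -0.10 for MRPL4 (SE 0.57). None of these values passed the test, and the comparisons share the vehicle and No.10-3 libraries, so the values stand side by side only.

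**Figure D5:**
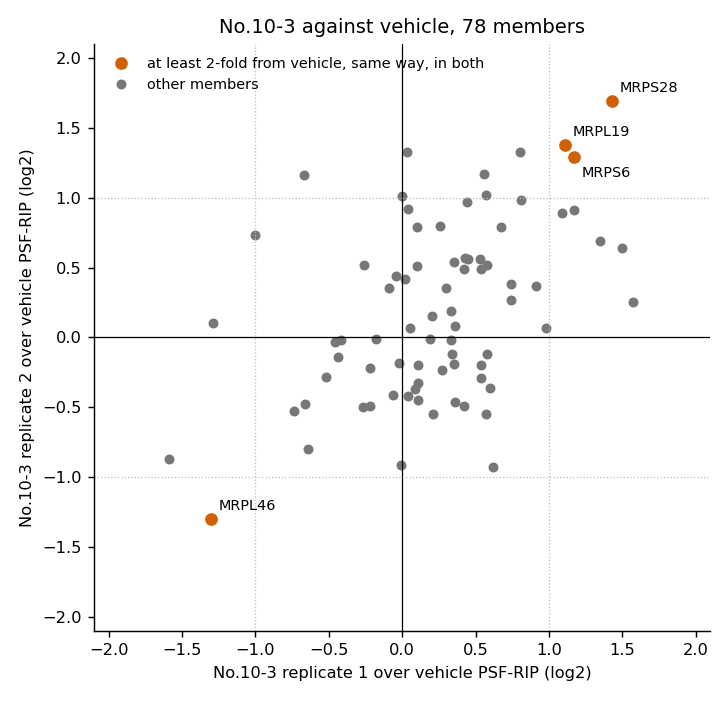
Log2 ratio to vehicle PSF-RIP of No.10-3 replicate 1 (horizontal axis) and replicate 2 (vertical axis) for the 78 members, both against the same vehicle library. Dotted lines mark 2-fold; MRPS28, MRPS6 and MRPL19 lie past it upwards and MRPL46 downwards in both replicates.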

How the data were processed

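The authors deposited 1 table with, for each of the 5 libraries, a whole-number read count per Entrez gene and a gene length. Per the submitters' processing notes, the build was hg19 and the tools included Bowtie, Bowtie2 2.2.6 and TopHat2 2.1.0, with no roles stated. Which tool counted reads, with which strand setting and annotation, is not stated. The table's 5 FPKM columns were not used.

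Counts as deposited were fitted with edgeR 4.0.16 in R 4.3.3: TMM factors, a filter that kept genes averaging 1 CPM or more, the quasi-likelihood test, and Benjamini-Hochberg adjustment over all genes tested. PSF-RIP (3 libraries) was tested against input (2 libraries), and No.10-3 PSF-RIP against vehicle PSF-RIP in the 3 PSF-RIP libraries. A standard error is the log2 change divided by the square root of the F statistic. Ratios of single libraries used a prior count of 2. The fits were tested on simulated data. DESeq2 1.42.0, other scalings, filters and designs, a loess removal of the gene length trend (span 0.5) and each library left out in turn were the alternatives. A change in recovery over input with No.10-3 could not be fitted, since the input columns do not name the treatment.

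Gene biotypes, overlaps and promoter windows came from RefSeq tables, in which all 78 members were found; overlaps are those of its own build, not of hg19. Members named with values were those called, the 5 highest and 5 lowest in PSF-RIP over input, those at least 2-fold from vehicle in both No.10-3 libraries, the 5 highest and 5 lowest input levels per kilobase, and members listed for their roles; those near the threshold were named after their values were seen. The members and lists were chosen with earlier results of these data known.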

Additional observations from a re-analysis of the deposited data

How the results depend on the processing

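In PSF-RIP over input, the direction of the median member stayed below 0 in all alternatives run. Each of these scaled the libraries to the bulk of genes or to protein-coding counts. No alternative scaled to total counts alone, and the members' share of all counts was higher in PSF-RIP than in input. The direction of the median thus holds only relative to such scaling. Leaving out single libraries moved the number of members called between 6 and 25, with 0 to 6 higher and 6 to 19 lower, and the median between -0.58 and -0.10. Fewer libraries were fitted in those settings. Against the 3 higher and 13 lower calls reported, scaling to nuclear protein-coding counts gave 6 higher and 11 lower, no filter on low counts 5 higher and 14 lower, and removal of the length trend 8 higher and 9 lower with a median of -0.21. The No.10-3 libraries alone against input gave 7 lower and 4 higher calls. The cause of these shifts was not tested. Over all genes, 2722 were called as reported, 1537 with the No.10-3 libraries alone, and 602 to 4799 when 1 library was left out. DESeq2 called 16 members, 3 higher and 13 lower. For DESeq2, scaling to nuclear protein-coding counts and no filter on low counts, the share of all genes called is not given. Their member counts show only the split between higher and lower. In No.10-3 over vehicle, 0 members were called in any alternative that gives a test, the median member ran from 0.13 to 0.29, and removal of the length trend called 18 of all genes and no member. No paired analysis was possible because the input columns cannot be assigned to an input sample, and No.10-3 and vehicle PSF-RIP share fewer than 2 replicate numbers. Depth limits the first comparison in the inputs, where 31 and 32 members had fewer than 20 counts, and the second comparison rests on 1 vehicle library.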

Other observations

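Besides the 78 members, 6 rows of the table bear an MRP name: an antisense gene to MRPL20, another to MRPL23, a divergent transcript of MRPS30 and 3 pseudogenes. MRPL20-AS1 had 110 and 220 counts with No.10-3 and 177 with vehicle in PSF-RIP, against 29 and 22 in the inputs, with a log2 PSF-RIP over input of 1.0 (SE 0.38, adjusted p = 0.0652 by edgeR's quasi-likelihood test). Its sense partner MRPL20, a large-subunit protein, had a log2 value of -0.54 (SE 0.36, adjusted p = 0.292), from 97 and 195 counts with No.10-3 and 157 with vehicle, against 59 and 68 in the inputs. Neither passed the test, and the difference between them was not tested. Without the strand setting of the authors' counting, reads where the genes overlap cannot be assigned to either. MRPL23-AS1 had 0 counts in all 5 libraries. The pseudogenes MRPL45P2, MRPS18CP7 and MRPL42P5 had at most 25 counts in any library.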
